A study of Mus musculus with 6 samples.

Results

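Genes of megakaryocytes and of the platelets that they shed were followed in bone marrow stromal cells of mice with acute myeloid leukemia (AML) or chronic myeloid leukemia (CML). The 9 genes were taken from a list of lineage genes, namely Pf4, Ppbp, Gp1bb, Gp5, Gp6, Gp9, Vwf, Treml1 and Nfe2. The list was chosen with earlier results of these data known. A gene was measured where the array had a probe set assigned to that gene alone, which held for 8 of the 9 genes and for 22180 genes in all. Gp1bb had only a probe set shared with another gene symbol and was not analysed here. Each of the 8 had 1 such probe set.

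RNA came from sorted marrow cells and was hybridised to 1 Affymetrix array per sample, with 3 AML arrays and 3 CML arrays. All samples carry the genotype Col2.3 GFP, where part of the Col1a1 promoter drives green fluorescent protein in cells of the bone lineage. The titles call the sorted cells stromal and the cell type field calls them osteoblastic. The titles give the leukemia of each sample, whereas the source names read CML for all 6, so every direction below rests on the titles. The labels give neither how the leukemias were induced, nor the age of the mice, nor whether each sample came from its own mouse. The p-values therefore reflect the spread among these samples only, and that spread may be technical. Levels are log2 of the deposited intensity. The median probe set lay between 4.11 and 4.35 on this scale, depending on the array, and each array held 39721 probe sets.

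Megakaryocytes are large polyploid cells of the marrow that mature next to sinusoidal vessels and release platelets into the blood. They fill their granules with chemokines and adhesion proteins and carry the GPIb-IX-V complex, the platelet receptor for von Willebrand factor, and the collagen receptor GPVI on their surface. Their maturation depends on the transcription factors GATA1, FLI1 and NF-E2. They share a progenitor and many transcription factors with red cells, and in the marrow they also act on stem cells and on the bone-forming lineage.

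The promoters of 4 genes are shown as examples of the 6 whose levels varied alike across the arrays. That of Gp9 is not shown because its window lies inside the annotated gene. These are the 250 bases before the gene start from RefSeq (GRCm38.p6), read 5′ to 3′ on the gene's strand. RefSeq promoters were matched for 7 of the 9 genes, by symbol. Capitals mark hexamers of the GATA type and of the ETS type bound by FLI1, on either strand. The GATA search took the spelling AGATAA, the spelling AGATAG, the spelling TGATAA and the spelling TGATAG, and the ETS search took AGGAAG. The sets do not overlap in these windows.
Pf4 (chr5:90772185-90772434, strand +): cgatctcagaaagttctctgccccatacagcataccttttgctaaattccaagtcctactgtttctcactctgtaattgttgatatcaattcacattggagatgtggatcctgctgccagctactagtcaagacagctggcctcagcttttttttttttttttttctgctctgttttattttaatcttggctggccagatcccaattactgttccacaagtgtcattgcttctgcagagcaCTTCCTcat
Ppbp (chr5:90768268-90768517, strand +): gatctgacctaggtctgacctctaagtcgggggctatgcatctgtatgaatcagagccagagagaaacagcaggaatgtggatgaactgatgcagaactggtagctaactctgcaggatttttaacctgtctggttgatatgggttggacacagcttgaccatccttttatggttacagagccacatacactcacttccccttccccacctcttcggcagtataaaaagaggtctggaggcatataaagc
Gp5 (chr16:30310782-30311031, strand -): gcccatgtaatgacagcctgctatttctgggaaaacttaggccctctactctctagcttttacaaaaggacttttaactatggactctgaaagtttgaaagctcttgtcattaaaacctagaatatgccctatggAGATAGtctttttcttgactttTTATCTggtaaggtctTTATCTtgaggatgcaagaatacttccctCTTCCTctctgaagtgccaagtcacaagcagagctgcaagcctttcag
Treml1 (chr17:48359666-48359915, strand +): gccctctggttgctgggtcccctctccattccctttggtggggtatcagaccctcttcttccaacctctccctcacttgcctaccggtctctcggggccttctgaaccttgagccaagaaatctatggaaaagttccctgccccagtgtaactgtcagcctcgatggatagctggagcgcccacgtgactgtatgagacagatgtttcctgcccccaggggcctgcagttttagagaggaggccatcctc
The Gp5 window held 3 GATA hexamers, beginning 115, 93 and 77 bases before the start, and an ETS hexamer beginning 48 bases before it. Pf4 held an ETS hexamer beginning 9 bases before its start. The Gp9 window, inside the annotated gene, held one beginning 16 bases before the start point taken for that window. The Ppbp and Treml1 windows held neither motif. In all, 3 of the 7 windows held a GATA hexamer (Gp5, Gp6 and Gp1bb) and 3 an ETS hexamer, against 26.5% and 29.5% of the 32851 RefSeq promoter windows of the same length. These matches are descriptions of the letters and not sites of binding.

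The 2 platelet chemokines had the widest differences between the leukemias by value, and neither passed the test. Pf4 (probe set 17438969, chromosome 5) encodes platelet factor 4, or CXCL4, a heparin-binding chemokine of the alpha granules. Its level was 5.70, 8.60 and 10.15 on AML 1, 2 and 3, against 5.37, 6.74 and 6.71 on CML 1, 2 and 3. AML 2 and AML 3 lay above every CML array, and AML 1 lay among them, so the groups overlapped. The AML mean was 8.15 ± 2.26 and the CML mean 6.28 ± 0.78 (SD, n = 3 each). The change was 1.88 on the log2 scale, or 3.67-fold, with a 95% confidence interval from -0.70 to 4.46 (limma adjusted p = 0.331). It was 0.88, or 1.83-fold, without AML 3 and 3.10 without AML 1.

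Ppbp (probe set 17438963, chromosome 5) encodes pro-platelet basic protein, the precursor of CXCL7. Its gene ends 2.37 kb before Pf4 in RefSeq, with no annotated gene between. Ppbp was at 5.37, 7.47 and 9.91 on AML 1, 2 and 3, against 4.41, 6.43 and 4.69 on CML 1, 2 and 3. AML 3 was the highest array, and CML 2 lay above AML 1. In intensity this was 41.5, 178 and 963 on the AML arrays, against 21.3, 86.1 and 25.8 on the CML arrays. The AML mean was 7.59 ± 2.27 and the CML mean 5.18 ± 1.09 (SD, n = 3 each), a change of 2.41 with an interval from -0.31 to 5.13 (limma adjusted p = 0.267). It was 1.25, or 2.37-fold, without AML 3 and 3.52 without AML 1. RNA from sorted cells in bulk cannot tell a difference in the number of megakaryocytes or platelets from a difference in RNA per cell.

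**Figure D1:**
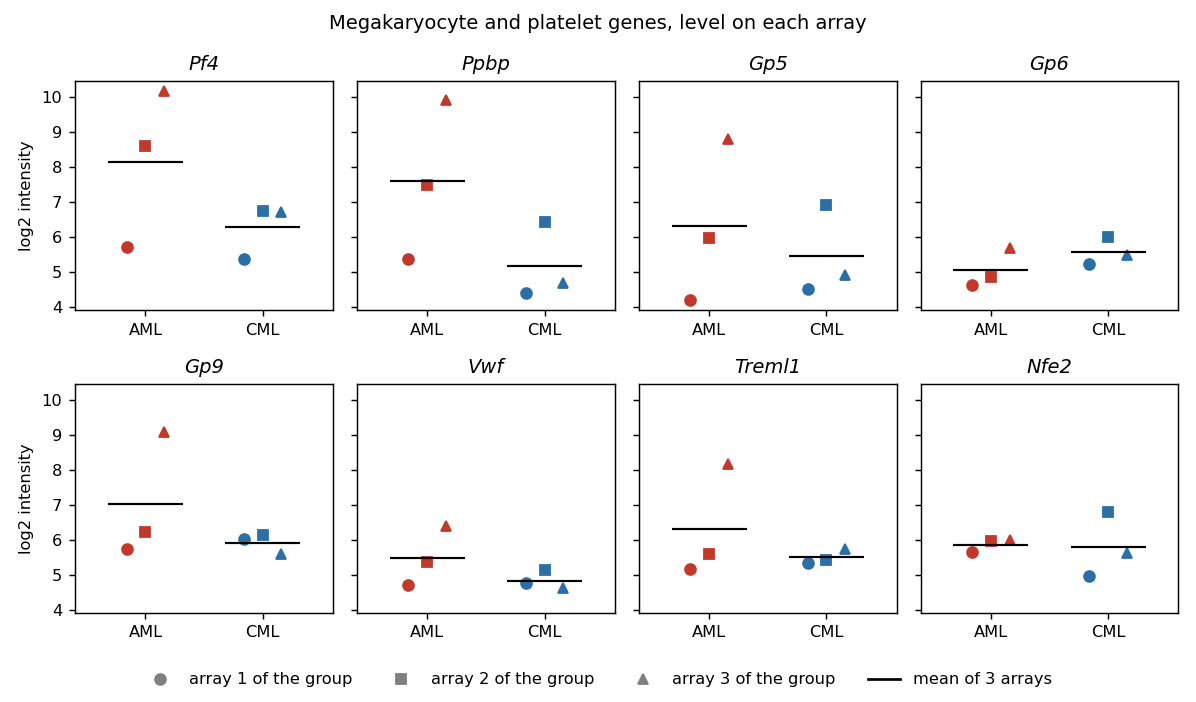
Log2 intensity of the 8 measured genes on each array (vertical axis), with the AML arrays left of the CML arrays in each panel. Symbols give the array within its group and bars the mean of 3 arrays. AML 3 is the highest array for Pf4, Ppbp, Gp5, Gp9, Vwf and Treml1, and CML 2 is the highest for Gp6 and Nfe2.

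Among the glycoprotein receptors, Gp9 and Gp5 were high on 1 AML array and Gp6 was not. Gp9 (probe set 17460569, chromosome 6) encodes glycoprotein IX, a leucine-rich repeat subunit needed to bring the GPIb complex to the surface. It was at 5.74, 6.21 and 9.07 on AML 1, 2 and 3, against 6.01, 6.13 and 5.60 on CML 1, 2 and 3. All arrays other than AML 3 lay within 5.60 to 6.21, so the AML mean of 7.01 ± 1.80 and the CML mean of 5.91 ± 0.28 (SD, n = 3 each) differ through AML 3. The change was 1.09, with an interval from -0.88 to 3.07 (limma adjusted p = 0.432), and without AML 3 it was 0.06, with an interval from -0.56 to 0.68.

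Gp5 (probe set 17329636, chromosome 16) encodes glycoprotein V, the thrombin-cleaved subunit of the same complex. It was at 4.21, 5.97 and 8.79 on AML 1, 2 and 3, against 4.53, 6.92 and 4.91 on CML 1, 2 and 3. AML 3 and CML 2 were high, AML 1 was the lowest of the 6, and the groups overlapped. The change was 0.87, with an interval from -1.98 to 3.72 (limma adjusted p = 0.655), and it was -0.36 without AML 3.

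Gp6 (probe set 17485713, chromosome 7) encodes GPVI, the collagen receptor that signals through the Fc receptor gamma chain. It was at 4.65, 4.87 and 5.68 on AML 1, 2 and 3, against 5.22, 6.01 and 5.48 on CML 1, 2 and 3. AML 1 and AML 2 lay below every CML array and AML 3 lay among them. It was the only 1 of the 8 with a lower mean in AML, at 5.07 ± 0.54 for the AML arrays and 5.57 ± 0.40 for the CML arrays (SD, n = 3 each). The change was -0.51, with an interval from -1.29 to 0.27 (limma adjusted p = 0.370). Without AML 3 it was -0.81, with an interval from -1.49 to -0.14 for this gene taken alone (limma adjusted p = 0.249, the lowest over the alternatives, which reached 0.672).

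Vwf and Treml1, whose proteins are stored in alpha granules, were also highest on AML 3. Vwf (probe set 17463205, chromosome 6) encodes von Willebrand factor, the ligand of the GPIb complex, which endothelial cells make too. It was at 4.70, 5.37 and 6.40 on AML 1, 2 and 3, against 4.75, 5.13 and 4.61 on CML 1, 2 and 3. AML 2 and AML 3 lay above every CML array and AML 1 lay among them. The change was 0.66, with an interval from -0.35 to 1.66 (limma adjusted p = 0.367), and it was 0.20 without AML 3. Treml1 (probe set 17338425, chromosome 17) encodes TLT-1, a receptor that moves from the granules to the platelet surface on activation. It was at 5.16, 5.60 and 8.17 on AML 1, 2 and 3, against 5.35, 5.42 and 5.73 on CML 1, 2 and 3. Apart from AML 3 the arrays lay close together, and the groups overlapped. The change was 0.81, with an interval from -0.96 to 2.59 (limma adjusted p = 0.507), and it was -0.12 without AML 3.

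Nfe2 (probe set 17322337, chromosome 15) encodes the p45 subunit of NF-E2, a basic leucine zipper factor that pairs with small MAF proteins, is needed for platelet release and is also active in red cell precursors. It was at 5.65, 5.95 and 5.99 on AML 1, 2 and 3, against 4.95, 6.79 and 5.63 on CML 1, 2 and 3. The AML arrays lay inside the range of the CML arrays, which CML 1 and CML 2 set. The AML mean was 5.86 ± 0.19 and the CML mean 5.79 ± 0.93 (SD, n = 3 each), a change of 0.07 with an interval from -0.99 to 1.13 (limma adjusted p = 0.931). The sign of this change was negative after quantile normalization and after cyclic loess, at -0.0069 and -0.056.

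Over the whole list, 0 of 8 genes were below the adjusted threshold of 0.05 in limma and 0 had an unadjusted p under 0.05. Of all 22180 genes, 1.91% passed, 1.83% as higher in AML and 0.0812% as lower, and 21.5% had an unadjusted p under 0.05. The groups did not overlap for 0 of the 8 genes, against 31.3% of all genes. By value 7 of the 8 were higher in AML, against 38.3% of all genes, and 6 of 8 were higher after quantile normalization or cyclic loess, where Nfe2 turned. The median change of the 8 was 0.84, against -0.11 for all genes. Without AML 3 the median of the 8 was 0.03, with 5 higher and 3 lower by value, against 38% of all genes higher, and 0 passed while 1.26% of all genes did. Without AML 1 the median was 1.56. The intervals of Pf4 and Ppbp reach from below 0 to more than 4 on the log2 scale, so this number of arrays does not tell a large difference from none.

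**Figure D2:**
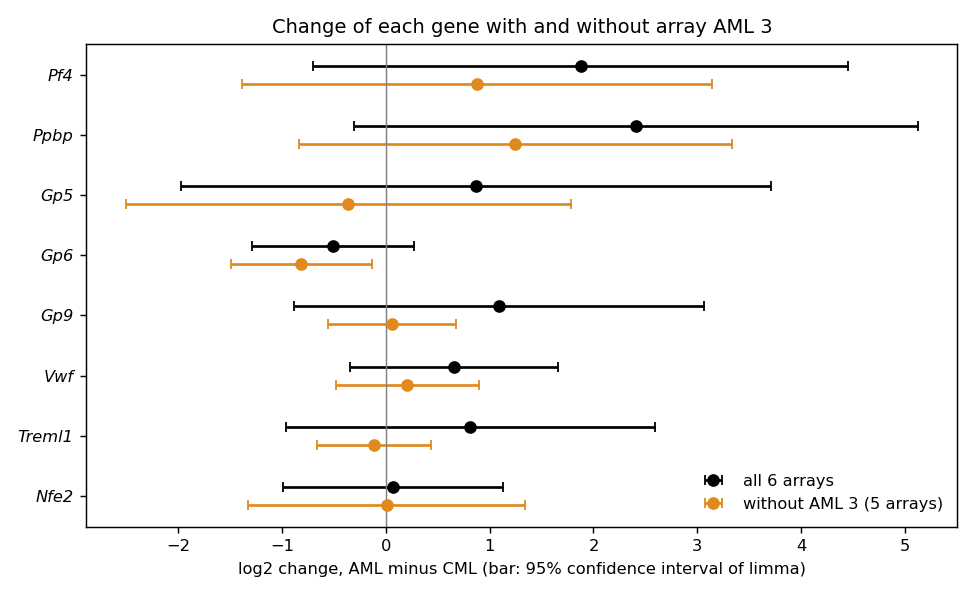
Log2 change of each gene, AML minus CML (horizontal axis), with all 6 arrays (black) and without AML 3 (orange). Points are limma estimates and bars their 95% confidence intervals. With all arrays every interval spans 0, and without AML 3 the estimates of Gp5, Gp9, Vwf, Treml1 and Nfe2 lie between -0.36 and 0.20.

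For each of the 8 genes the AML arrays spanned more than the difference between the group means. Across the AML arrays Pf4, Ppbp and Gp5 spanned 4.45, 4.54 and 4.58 on the log2 scale, against 1.37, 2.02 and 2.39 across the CML arrays. The AML range was wider than the CML range for 7 of the 8 genes, all but Nfe2, against 36.4% of all genes. AML 3 was the highest, AML 2 the next and AML 1 the lowest AML array for 8 of the 8, an order found in 18.6% of all genes. In CML, CML 2 was the highest array for 7 of the 8, with Treml1 highest on CML 3. For Pf4 the lead was small, at 6.74 on CML 2 and 6.71 on CML 3. The share of all genes with CML 2 highest in CML was not counted.

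For 6 of the 8 genes AML 3 lay at least 1 log2 unit above the next highest of the 6 arrays, a count made after the values were seen. The gap was 2.86 for Gp9, 2.44 for both Treml1 and Ppbp, 1.87 for Gp5, 1.56 for Pf4 and 1.03 for Vwf. The same held for 48 of 22180 genes, or 0.216%. The other arrays stood out by as much for 83 genes on AML 1, 37 on AML 2, 199 on CML 1, 278 on CML 2 and 161 on CML 3, and for 0 of the 8 on each. The count of 6 held after median centring and after cyclic loess, and was 5 after quantile normalization. Averaging the probe sets of each gene could not change the count, since each of the 8 had only 1. Among the 48 genes the widest gap was that of Gp9, followed by Hbb-bh1, an embryonic globin, at 2.66. Parm1 and Timp3, an inhibitor of metalloproteases, had gaps of 2.29 and 2.24.

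Other genes of platelet surface receptors followed in part. Of 18 listed, 15 were measured, with 0 passing as higher and 0 as lower in limma, 7 higher and 8 lower by value and a median change of -0.05. Of all genes, 1.83% passed as higher, 0.0812% as lower, and 38.3% were higher by value, with a median change of -0.11. AML 3 was the highest array for 8 of the 15, against 14.7% of all genes. It was highest by at least 1 log2 unit for 4, namely F2rl3, Clec1b, P2ry1 and Itgb3, against 0.216% of all genes. Clec1b, which encodes the podoplanin receptor CLEC-2, was at 4.03, 4.57 and 6.16 on AML 1, 2 and 3, against 3.70, 4.11 and 3.98 on CML 1, 2 and 3. Itgb3, the beta subunit of the platelet fibrinogen receptor, was at 4.71, 6.25 and 7.57 on AML 1, 2 and 3, against 5.22, 5.83 and 5.47 on CML 1, 2 and 3. Both were highest on AML 3, AML 2 lay above every CML array for both, and AML 1 did not. Itga2b, the alpha subunit of the same integrin and an early marker of the lineage, was highest on CML 2, at 7.13, and on AML 3 it was at 6.59. The receptors with the lowest unadjusted p were Cd226, at -0.67 and dim on every array, and Cd9, a tetraspanin, at 0.89 (limma adjusted p = 0.134 and 0.139). The second probe set of Cd9 gave -0.29. Gp1ba, the main subunit of the GPIb complex, was not analysed here.

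Of 15 genes for granule contents and secretion, 3 passed as higher in AML and 0 as lower, and the median change was 0.48. Of all genes, 1.83% passed as higher and 0.0812% as lower, and the median change was -0.11. F13a1, the A subunit of coagulation factor XIII, which monocytes also make, was at 7.92, 9.50 and 7.54 on AML 1, 2 and 3, against 4.51, 5.0 and 5.50 on CML 1, 2 and 3. Its change was 3.32 ± 0.53 (SE; limma adjusted p = 0.0412). F5, coagulation factor V, was at 7.73, 7.01 and 6.57 on AML 1, 2 and 3, against 4.91, 4.47 and 4.91 on CML 1, 2 and 3, a change of 2.34 ± 0.31 (SE; limma adjusted p = 0.0298). The groups did not overlap for either gene, as for 31.3% of all genes. AML 3 was the lowest AML array for both, unlike for the 8 genes. Nbeal2, needed to form alpha granules, was 1.41 ± 0.22 higher (SE; limma adjusted p = 0.0376). Thbs1, thrombospondin, had AML 3 highest, at 9.60, with 7.16 and 7.30 on the other AML arrays and 7.18 to 8.26 on the CML arrays, and Clu was also highest on AML 3 by at least 1 log2 unit.

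Of 16 measured genes for signalling, lipid mediators and the cytoskeleton, 2 passed as higher in AML and 0 as lower, with a median change of 1.07. Of all genes, 1.83% passed as higher and 0.0812% as lower, with a median change of -0.11. Flna and Tln1, which link integrins and GPIb to actin and are expressed in most cells, were 2.43 ± 0.22 and 1.04 ± 0.15 higher (SE; limma adjusted p = 0.0151 and 0.0339). Fcer1g, the signalling chain that GPVI shares with Fc receptors of myeloid cells, was at 10.76, 10.93 and 10.18 on AML 1, 2 and 3, against 9.19, 7.86 and 9.09 on CML 1, 2 and 3. It lay above every CML array on each AML array and did not pass (change 1.91 ± 0.40, SE; limma adjusted p = 0.0693), while Gp6 itself was lower in AML by value. Alox12, the platelet lipoxygenase, was highest on AML 3, at 6.19, with 3.70 to 4.37 on the other arrays. Tubb1, the tubulin of the platelet rim, was dim, from 3.71 on AML 1 to 4.92 on AML 3, with 3.83 to 4.47 on the CML arrays.

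Of 14 transcription factors of the lineage, Etv6 passed as higher in AML and 0 passed as lower, with a median change of -0.15. Of all genes, 1.83% passed as higher and 0.0812% as lower, with a median change of -0.11. Etv6, an ETS repressor, was at 8.90, 7.88 and 8.29 on AML 1, 2 and 3, against 6.63, 6.52 and 6.35 on CML 1, 2 and 3 (change 1.86 ± 0.27, SE; limma adjusted p = 0.0338). Fli1, the ETS activator of many platelet genes that other blood cells also express, was at 9.69, 8.89 and 8.92 on AML 1, 2 and 3, against 7.999, 5.37 and 6.37 on CML 1, 2 and 3. Its change of 2.58 ± 0.64 (SE) missed the threshold (limma adjusted p = 0.101). Gata1, shared with red cells, was at 4.56, 6.002 and 7.57 on AML 1, 2 and 3, against 6.70, 8.05 and 7.33 on CML 1, 2 and 3 (limma adjusted p = 0.329). Gfi1b, also shared with red cells, was at 5.67, 7.69 and 9.33 on AML 1, 2 and 3, against 7.94, 9.26 and 8.77 on CML 1, 2 and 3 (limma adjusted p = 0.458). For Gata1 and Gfi1b the AML arrays stood in the same order as for the 8 genes, with AML 1 the lowest of all 6 arrays. The 6 calls in these wider lists ended without AML 1, without AML 2 and without CML 3, where 0 of 22180 genes passed in limma and 3048, 3750 and 3533 had an unadjusted p under 0.05. Without AML 3 the calls of Tln1 and Etv6 also ended, at changes of 1.09 and 1.89 (limma adjusted p = 0.0660 and 0.0719). Those of F5, Nbeal2, F13a1 and Flna held without AML 3. Whether the 6 calls held under other scalings is not given here. After quantile normalization 93 of 22180 genes passed in limma, and after cyclic loess 64 did.

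**Figure D3:**
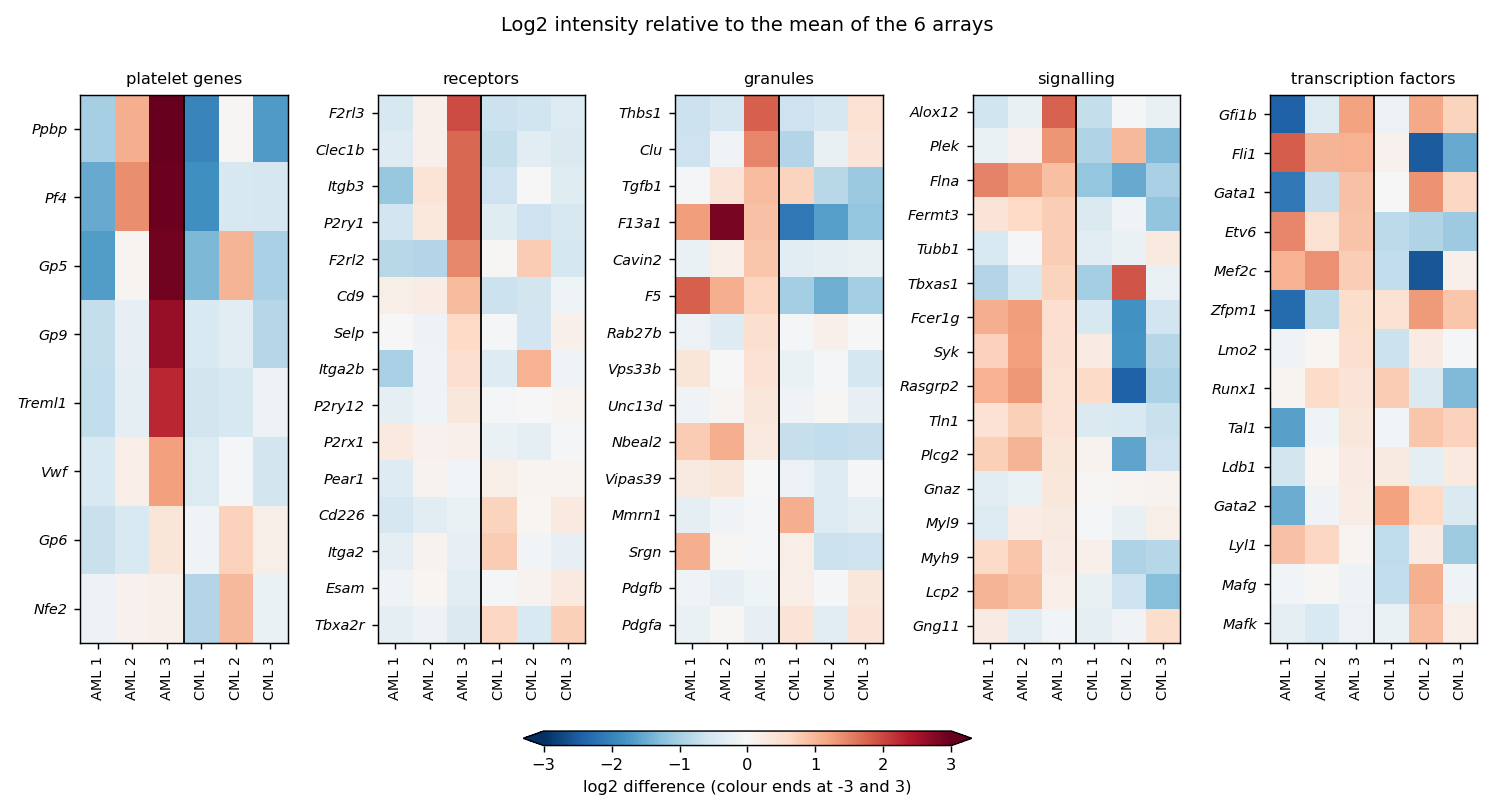
Log2 intensity of the 8 genes (left) and of the 60 measured genes of the 4 wider lists on each array, relative to each gene's mean over the 6 arrays, with AML arrays left of the black line and CML arrays right of it. Rows are ordered by the value on AML 3. That array is the highest for 6 of the 8 genes and for some receptors, and CML 2 is the highest for Gp6 and Nfe2. F13a1, F5 and Flna are high on all 3 AML arrays.

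Markers of other blood cells also varied between the arrays. Each score below is the mean log2 level of a list on an array minus its mean over the 6 arrays. The 8 genes scored -0.87, 0.24 and 2.001 on AML 1, 2 and 3, against -0.94, 0.18 and -0.60 on CML 1, 2 and 3. The 10 measured erythroid markers scored -2.97, -0.63 and 1.10 on AML 1, 2 and 3, against -0.20, 1.62 and 1.09 on CML 1, 2 and 3. AML 3 was the highest and AML 1 the lowest AML array for 10 of these 10, an order found in 18.6% of all genes. However, AML 3 was the highest of the 6 arrays for 1 of them, Car1, against 14.7% of all genes. By value 9 of the 10 were lower in AML and 1 was higher, against 38.3% of all genes higher. Their median change was -1.88, with 0 passing. Among the 12 endothelial markers, which bear on Vwf, the score ran from -0.18 to 0.03 in AML and from -0.03 to 0.18 in CML, and it was lowest on AML 3, where Vwf was highest. On AML 3 the 12 markers ran from 3.13 for Emcn to 5.91 for Egfl7, with the median probe set at 4.12, and Egfl7, Pecam1, Plvap, Cdh5 and Flt4 lay above it. The part of endothelial cells in the level of Vwf was not tested.

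Myeloid and leukocyte genes did not follow the 8 genes. The 15 pan-haematopoietic genes scored 1.08, 0.96 and 0.31 on AML 1, 2 and 3, against 0.08, -1.54 and -0.87 on CML 1, 2 and 3, so AML 3 was the lowest AML array. The 12 macrophage and monocyte markers scored 0.74, 0.64 and -0.09 on AML 1, 2 and 3, against -0.41, -0.64 and -0.24 on CML 1, 2 and 3. The 12 granulocyte markers scored 0.93, 0.75 and 0.26 on AML 1, 2 and 3, against -0.36, -1.35 and -0.23 on CML 1, 2 and 3. F13a1, F5, Fcer1g and Fli1 were higher by value in AML, as these 3 lists were, and the part of leukocytes in their levels was not tested. The 11 measured osteoblast markers, which check the labelled cell type, scored -0.58, 0.24 and -1.23 on AML 1, 2 and 3, against 0.25, -0.61 and 1.92 on CML 1, 2 and 3. This score was lowest on AML 3, where the score of the 8 genes was highest. On AML 3 the 11 markers ran from 3.31 for Bglap to 9.49 for Col1a2, with the median probe set at 4.12. Bglap, Phex and Dlx5 lay below that median. Col1a1 was at 7.26 on AML 3 and at 11.95 on CML 3. Before centring, the mean log2 level of the pan-haematopoietic genes was 9.202, 9.085 and 8.433 on AML 1, 2 and 3. That of the granulocyte markers was 10.247, 10.072 and 9.578, and that of the osteoblast markers 6.667, 7.487 and 6.015. The osteoblast mean lay below both others on each AML array. On CML 1 it also lay below both, on CML 2 below the granulocyte mean only and on CML 3 above both. The macrophage mean lay above the osteoblast mean on AML 1 and AML 3 only. The lists hold different genes with different probe sets, so the order of these means does not measure the share of each cell type. The part of a differing mixture of cells in these levels was not tested.

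**Figure D4:**
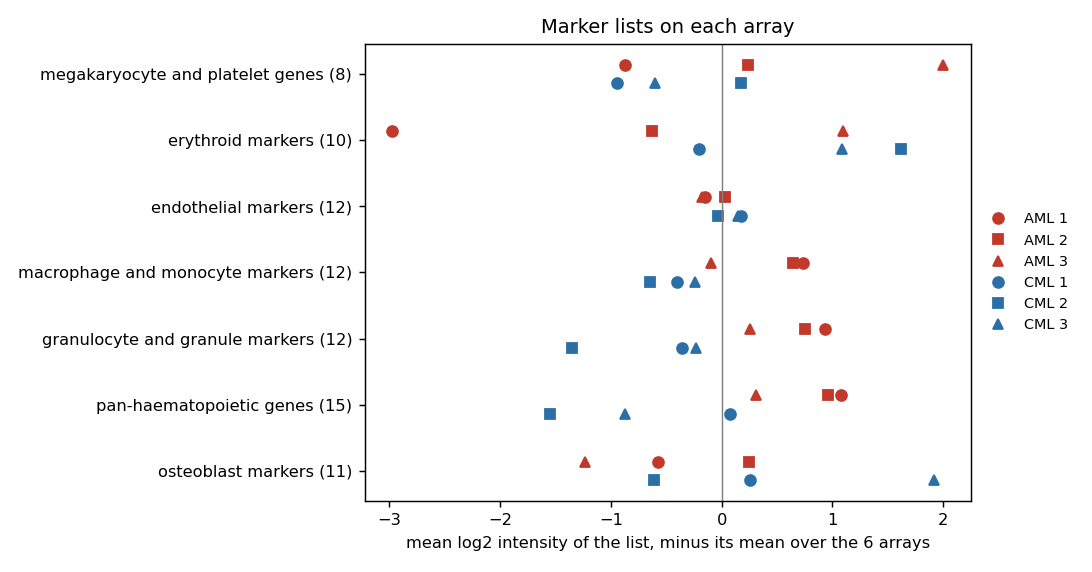
Score of each marker list on each array (horizontal axis, log2 units relative to the mean of the 6 arrays), with AML arrays (red) above CML arrays (blue) and the number of genes measured in brackets. The platelet genes reach 2.001 on AML 3, and the osteoblast markers are lowest there.

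Within the list, 6 genes varied alike over the arrays and 2 did not. The Pearson correlation of a gene with the mean of the other 7, over 6 arrays, was 0.91 for Pf4, 0.95 for Ppbp, 0.96 for Gp5, 0.90 for Gp9, 0.98 for Vwf and 0.88 for Treml1. It was 0.42 for Gp6 and 0.43 for Nfe2. AML 3 weighs heavily in these values, which are given as descriptions. Outside the list, 4951 genes had an SD over the arrays of at least 0.5, and 41 of them (0.828%) correlated above 0.9 with the mean profile of the 8. The 5 most alike were Gm20005, Ankrd52, Hbb-bh1, Snord92 and Ehd3, with correlations from 0.97 to 0.99 over 6 arrays and from 0.87 to 0.96 without AML 3. Ehd3, an endocytic recycling protein, was at 3.43, 4.25 and 5.11 on AML 1, 2 and 3, against 3.68, 3.93 and 3.78 on CML 1, 2 and 3. Hbb-bh1 was at 2.45, 4.25 and 6.92 on AML 1, 2 and 3, against 2.31, 3.15 and 2.73 on CML 1, 2 and 3, so it was above the median probe set on AML 2 and AML 3 only.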

How the data were processed

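The deposited value table holds 1 linear intensity per probe set and array, since the values run from 2.71 to 8583. Both limma and lumi are named in the submitters' processing notes; background correction, summarisation and normalization are not given in the sources used here. Groups came from the titles. Of 39721 probe sets, 23521 had 1 symbol in the platform annotation, and the highest-mean one stood for each of 22180 genes. Log2 intensity was fitted over all of them in limma 3.58.1 (R 4.3.3) with lmFit and eBayes, AML minus CML, two-sided, with Benjamini-Hochberg adjustment and a threshold of 0.05. No detection p-value was used. The step was tested on simulated data.

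Named genes were all members, up to 4 genes past the threshold from each wider list, the 2 with the lowest p where fewer than 2 passed, 10 fixed partners and lineage genes, and the 5 genes of most similar pattern. Other genes, chosen for their gap on AML 3, were named after their values were seen. The members and lists were chosen with earlier results of these data known. Alternatives were other scalings, a filter on dim genes, other probe set rules, other moderation, array weights, the replicate number as a block and each array left out in turn. Same-numbered arrays deviated from their group means with correlations across genes of 0.24, -0.30 and -0.25, so the numbers were not taken as pairs. Figures were drawn with matplotlib 3.10.9.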

Additional observations from a re-analysis of the deposited data

How the results depend on the processing

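In each of the 15 alternatives 0 of the 8 genes passed in limma; at an unadjusted p under 0.05 the count was 0 in 11 of them, 3 without AML 1, and 1 each without AML 3, without CML 2 and with the replicate block. The median change of the 8 ran from 0.50 to 0.99 over the other settings and from 0.03 to 1.56 with 1 array left out. Adjusted p over the alternatives ran from 0.168 to 0.628 for Pf4 and from 0.198 to 0.485 for Ppbp. Without AML 3, Gp5 turned to -0.36 and Treml1 to -0.12, and with 1 array left out they ran up to 1.93 and 1.39. Nfe2 turned to -0.0069 after quantile normalization and -0.056 after cyclic loess, and with 1 array left out it ran from -0.35 without CML 1 to 0.57 without CML 2, at -0.01 without CML 3. The cause was not tested. Over all genes, 423 passed as fitted, 93 after quantile normalization, 896 after median centring, 64 after cyclic loess, 639 with array weights and 0 with the replicate block (3711 at an unadjusted p under 0.05), where the arrays share only a number; with 1 array left out the count ran from 0 to 438. The block ended the calls of F5, Nbeal2, F13a1, Flna, Tln1 and Etv6. Median centring moved the median change of all genes from -0.11 to 0.04. Genes near the array medians may lack signal over background, which was not measured here.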
